A study of Mus musculus with 45 samples.

Results

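The libraries described here are the 23 that came from mice on the high fat diet (HFD), out of 45 libraries in the series: 12 from the set labelled LTF and 11 from the set labelled STF. They were chosen by diet and set as given in the sample titles, and no measured value was used. Every library was made from sorted tuft cells of the small intestine of 1 male C57BL/6J mouse. Each mouse had arrived at 5 weeks of age and was housed at 30°C. The methods name the sorted cells as EpCAM+CD45+ Siglec-F+, but also say that CD45 served to exclude cells that carried it. The paper's results name tuft cells as EpCAM+ and Siglec-F+ only. The HFD held 60% fat and the reference diet (RFD) 10% fat, and the 22 RFD libraries (11 LTF and 11 STF) are used below only for comparison. The methods describe feeding for 9 or 22 weeks, whereas the labels give 9 weeks for all libraries, so LTF was read as the longer and STF as the shorter feeding. Mice fed for longer were also older and formed a separate library set, and feeding time, age and library set cannot be told apart in any difference between LTF and STF.

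Tuft cells are rare chemosensory cells of the epithelium. They carry parts of the taste signalling cascade, among them the cation channel Trpm5, and they release IL-25 and lipid mediators that act on immune cells below the epithelium. The neighbouring epithelial cells have other tasks: enterocytes absorb fat, sugar and amino acids, Paneth cells secrete antimicrobial peptides at the crypt base, enteroendocrine cells secrete hormones, and dividing cells of the crypt replenish all of them.

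The sort left other epithelial RNA in the libraries, in amounts that differed between them, as the plot of summed marker levels shows. The summed level of 27 tuft cell markers ranged from 477 to 31622 CPM (reads on a gene scaled to a common library size) in the STF libraries (median 9442) and from 1513 to 31074 CPM in the LTF libraries (median 18380.1). Library sizes were adjusted by TMM factors, so a CPM value cannot be read as a share of a library's reads. The STF library of mouse 80 had the lowest tuft level and the highest sum of 8 Paneth cell markers, 675951 CPM. Paneth markers ranged from 125 to 675951 CPM in STF and from 28.4 to 153914 CPM in LTF, so the ranges overlapped widely. The sum of 12 enterocyte markers was 6919 to 31056 CPM in STF (median 9230.2) and 12182 to 41416 CPM in LTF (median 20732), and 7 of the 11 STF libraries lay below every LTF library. The sum of 20 cell cycle genes lay higher in STF, at 339 to 2546 CPM (median 1865) against 125 to 1823 CPM (median 499) in LTF. Immune cell RNA was also found in some libraries. The sum of 6 myeloid markers was 0 to 685 CPM in STF (median 7.60) and 0 to 1935 CPM in LTF (median 4.04), highest in LTF 31. The sum of 2 B and plasma cell markers was 0 to 2189 CPM in STF (median 1.32) and 0 to 3423 CPM in LTF (median 7.95), highest in LTF 70. The part of immune cells in the results below was not tested. No marker in these lists was at 0 in every library. In bulk RNA, fewer cells of a type and less RNA per cell cannot be told apart.

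**Figure D1:**
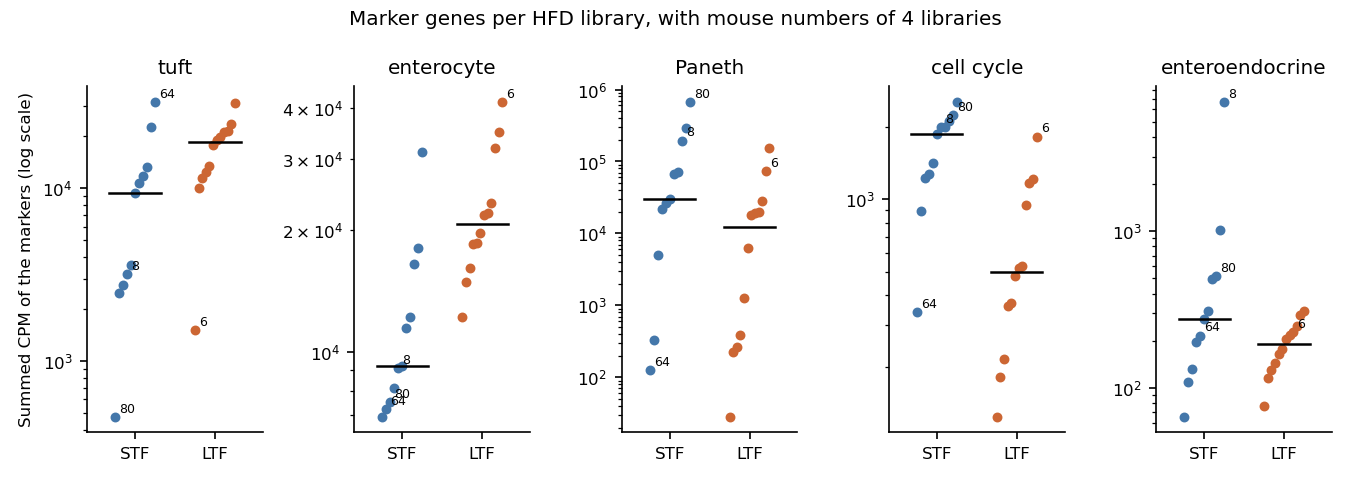
Summed CPM (log scale) of the tuft, enterocyte, Paneth, cell cycle and enteroendocrine markers in each of the 11 STF and 12 LTF libraries on HFD. Points are libraries sorted by value, black lines are medians, and numbers name 4 mice. STF 80 is lowest for tuft and highest for Paneth markers, and the enterocyte sums of LTF lie mostly above those of STF.

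Total reads on genes ranged from 409023 to 3600000 in STF and from 661598 to 4690213 in LTF. Total reads, the number of tested genes with a read, and the shares of mitochondrial reads and of AY036118, a transcript of ribosomal DNA origin, were compared as a family of 4. The raw p ranged from 0.178 to 0.943 and the adjusted p from 0.495 to 0.943 (permutation test of the difference of means, two-sided, 100000 resamples). The share of reads in the 50 leading genes was 34.7% to 69.1% in STF (median 44.4%) and 31.2% to 49.3% in LTF (median 35.3%), and that of Lars2 was 0.0072% to 0.055% (median 0.0277%) and 0.0112% to 0.0934% (median 0.0636%), both given with no test, and their part in the results was not tested. The highest mitochondrial share was 37.1%, in STF 50, and the fewest tested genes with a read, 10016 and 10859, were found in STF 63 and STF 64.

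Of 14020 genes tested, 1320 (9.42%) differed between LTF and STF on HFD when the threshold for the Benjamini-Hochberg adjusted p was 0.1 (quasi-likelihood test of edgeR). Higher expression in LTF was found for 694 (4.95%) and lower expression for 626 (4.47%). Counts in the gene lists below are to be read beside these shares. The median log2 fold change (LTF minus STF throughout) was 0.92 among the higher genes and -0.96 among the lower genes, beside 0.06 over all genes tested. With DESeq2's size factors the share of calls that were higher was 41.8%, and with limma on log2(TPM + 1) it was 94.5%, a scale on which the median of all genes rose by a further 0.27. On the CPM scale, 23 genes (0.164%) had every LTF library above every STF library and 2 (0.0143%) had every LTF library below. The number of calls fell to 871 without STF 80 and rose to 2307 without STF 64.

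The same comparison among the RFD libraries called 99 genes (0.706%), 44 higher (0.314%) and 55 lower (0.392%). RFD and HFD libraries have no library in common. Of the 1320 genes called on HFD, 1223 (92.7%) had the same sign on RFD, and 61 were called in both with the same sign, which is 4.62% of the HFD calls and 61.6% of the RFD calls. The same sign was found for 639 of the 694 higher and 584 of the 626 lower genes. Over all tested genes, 43.2% had a positive and 56.8% a negative sign on RFD. The difference between the diets in the LTF against STF change was itself tested for every gene, and 1 gene (0.00713%), Nts, passed with a negative difference (adjusted p = 0.0695, edgeR), so a larger number of calls on HFD does not show a larger change on HFD. Mouse numbers fall into 3 series, and medians within each are given below for the main gene lists.

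**Figure D2:**
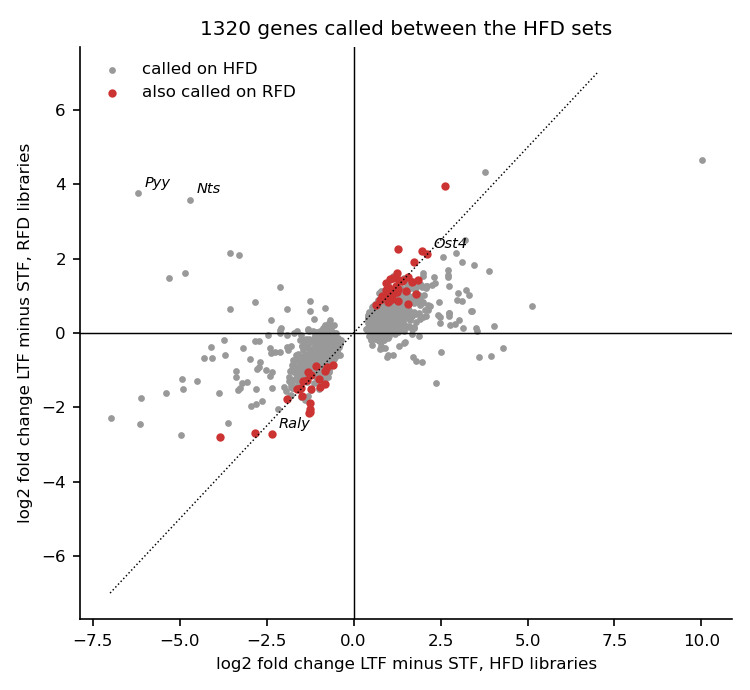
Log2 fold change between LTF and STF on RFD (vertical) against that on HFD (horizontal) for the 1320 genes called on HFD. Red points are the genes also called on RFD with either sign, and the dotted line marks equal change. Most points lie in the quadrants of equal sign, with Ost4 near the line and the hormone genes Nts and Pyy in the quadrant of opposite sign.

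Ost4, a very small subunit of the oligosaccharyltransferase that attaches sugars to new proteins, had the smallest p. It had 15.6 to 40.03 CPM in STF (median 27.1) and 49.6 to 175 CPM in LTF (median 129). The groups did not overlap, and the fold change was 4.32 (log2 2.11, SE 0.21, adjusted p = 1.08e-06, edgeR). On RFD its log2 fold change was 2.12 (adjusted p = 3.26e-05, edgeR), about the same size. Ost4 lies on chromosome 5 from 30905885 to 30907788 (GRCm38).

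Plac8, which encodes a small cysteine-rich protein, rose from a median of 419 CPM (375 to 678) to 1112 CPM (859 to 1389). Actb, the cytoskeletal beta actin, rose from 831 CPM (433 to 1240.2) to 2340.4 CPM (1680.5 to 3820.1). In both genes the 12 LTF libraries lay above the 11 STF libraries, with log2 fold changes of 1.28 (SE 0.15) and 1.57 (SE 0.21) and adjusted p of 1.77e-05 and 6.75e-05 (edgeR). Ezr, which ties actin to the membrane of microvilli, had a median of 120.4 CPM (94.2 to 221) in STF and 281 CPM (214 to 389) in LTF, with 11 of 12 LTF libraries above every STF library.

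Sult2b1, a sulfotransferase that acts on cholesterol, went from a median of 16.7 to 55.1 CPM, and its groups did not overlap (log2 fold change 1.78, SE 0.22). Tmem86a, an enzyme of ether lipid breakdown, went from 51.2 to 134 CPM, also without overlap. Ufm1, a ubiquitin-like modifier, and Tomm7, a small subunit of the protein import channel of mitochondria, had log2 fold changes of 1.54 and 1.24. Tm4sf5, Nptn and Lzts3 were also among the higher protein-coding genes with the smallest p, with log2 fold changes of 1.06, 1.02 and 2.10. All of these genes stayed called when each of the 23 libraries was left out in turn.

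**Figure D3:**
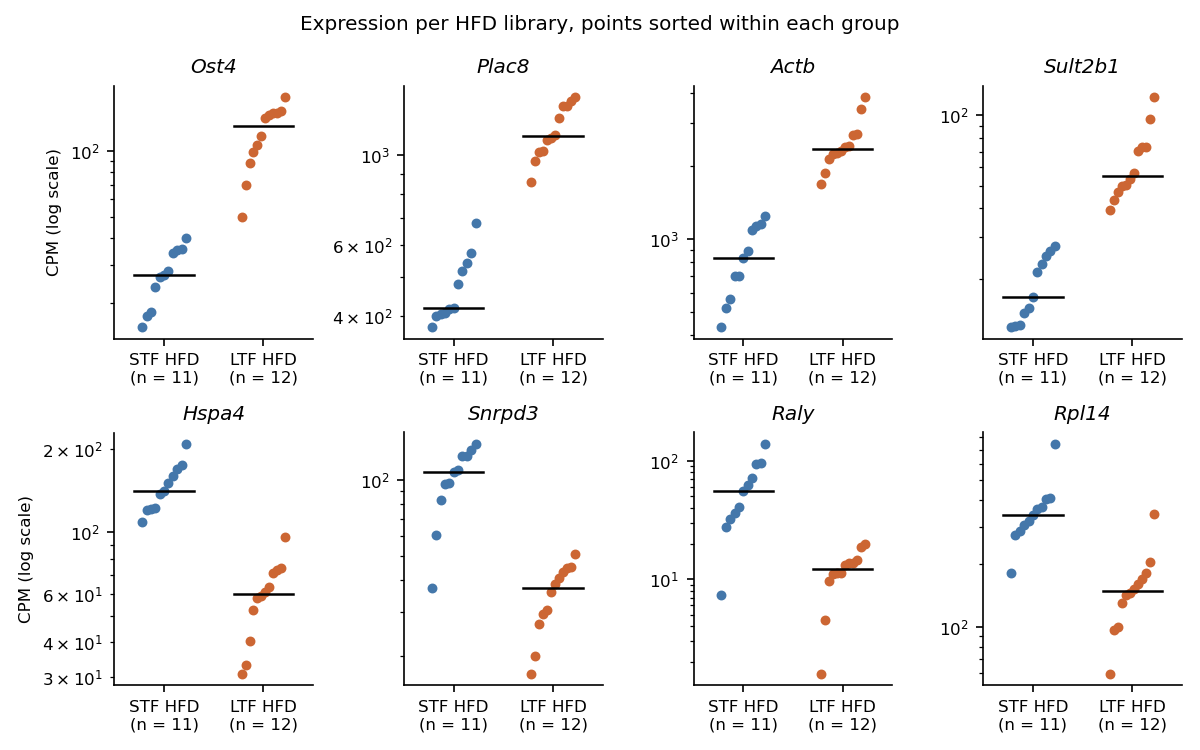
CPM (log scale) in each STF (n = 11) and LTF (n = 12) library on HFD for 4 higher genes (Ost4, Plac8, Actb, Sult2b1) and 4 lower genes (Hspa4, Snrpd3, Raly, Rpl14), with points sorted within a group and black lines at the medians. The groups do not overlap for the 4 higher genes and for Hspa4, and overlap for Snrpd3, Raly and Rpl14.

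Chylomicron assembly is the packing of absorbed fat into lipoproteins by enterocytes. Of 12 enterocyte genes tested, 9 were higher and none lower (median log2 fold change 1.16, beside 0.06 over all genes). Of 13 chylomicron genes, 7 were higher and none lower (median 0.75), and 3 of the called genes (Apoa1, Apoa4 and Apoc3) belong to both lists. The unadjusted p was under 0.05 in the higher direction for 11 enterocyte and 9 chylomicron genes and for none in the lower direction. On RFD the medians were 0.86 and 0.51, with 2 and 0 genes called higher.

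Apoc3, an apolipoprotein of triglyceride-rich particles, had 19.3 to 72.3 CPM in STF (median 39.2) and 59.4 to 361 CPM in LTF (median 129). Its log2 fold change was 1.77 with an SE of 0.28 (adjusted p = 0.000405, edgeR), and 10 of 12 LTF libraries lay above every STF library. Apoa1, its neighbour on chromosome 9, had a median of 1221 CPM (790.5 to 2052) in STF and 2998 CPM (1569 to 6380.0) in LTF. Apoc2 (1.72), Apoa4 (1.19) and Dgat2 (1.46), the last an enzyme of triglyceride synthesis, also rose.

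The brush border peptidase Anpep rose from a median of 259 CPM (143 to 416) to 589.9 CPM (365 to 1673). The alkaline phosphatase Alpi had a log2 fold change of 0.86. Of 8 genes of carbohydrate digestion, 4 were higher, among them trehalase (Treh, 1.91), lactase (Lct, 1.46) and the glucose transporter Slc5a1 (1.23). Of 5 genes of the distal intestine, 2 were higher: Fabp6 (2.58) and Slc51b (1.58), which carry bile acids through ileal enterocytes. Of 7 genes of the proximal intestine, 1 was higher and none lower (median 0.55, with 4 positive and 3 negative signs). Fabp6 ranged from 0 to 32.7 CPM in STF and from 0.43 to 94.2 CPM in LTF. Without STF 60 the value for Fabp6 was 3.70. The sum of the enterocyte markers moved in the same direction, as given above, and these lists share members with it. With the enterocyte marker score as a covariate, Lct, Alpi, Apoa4 and Slc5a1 had log2 fold changes of -0.30, -0.11, -0.17 and -0.058. Under that score, 1 enterocyte and 1 chylomicron gene were called higher, and 1 of each list lower (medians -0.08 and -0.21). No gene of carbohydrate digestion was called (median -0.30). With the difference between tuft and other markers as a covariate, 10 enterocyte and 8 chylomicron genes were called higher. The levels of the enterocyte genes enter both scores. The median of the enterocyte genes was 0.71, 0.23 and 2.27 in the 3 number series (1 to 8, multiples of 10, and 21 to 64, with LTF 65 in none). In the same order it was 0.68, 0.18 and 1.11 for peroxisomal oxidation, 0.28, 1.08 and 0.29 for cholesterol synthesis, 0.50, 0.82 and 0.96 for class I presentation, -0.28, -0.67 and -0.30 for ribosomal protein genes, and -0.96, -3.08 and -0.80 for the cell cycle, lists described below, beside -0.07, 0.04 and 0.33 over all genes.

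Of 12 genes of peroxisomal fatty acid oxidation, which shortens very long chains, 9 were higher and none lower (median 0.79, and 0.46 on RFD with none called). The bifunctional enzyme Ehhadh had 3.14 to 48.5 CPM in STF (median 32.4) and 32.9 to 126 CPM in LTF (median 75.8). Of the LTF libraries, 9 of 12 lay above every STF library, and it rose by 1.32 on the log2 scale, with an SE of 0.33 (adjusted p = 0.0179, edgeR). Crat, Scp2 and Acot8 rose by 1.23, 0.73 and 0.86.

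Of 18 genes of oxidation in mitochondria, 4 were higher and none lower with edgeR (2 at an unadjusted p under 0.05), and the list's median was -0.09. DESeq2 called 1 lower, and edgeR called 4 lower without STF 62, 63 and 64 and 7 lower with the enterocyte score as a covariate. The 4 higher genes were the acylcarnitine carrier Slc25a20 (1.17), the dehydrogenase Acadl (0.71), the carnitine transferase Cpt1a (0.48) and the reductase Decr1 (0.56). Peroxisomal and mitochondrial genes thus had different counts, 9 of 12 and 4 of 18, and the difference between the lists was not tested. Among 19 genes that respond to the nuclear receptor PPAR alpha, 7 were higher and 1 lower, and the higher ones include the mitochondrial carrier Ucp2 (0.80) and the transcription factor Creb3l3 (0.88). With the enterocyte score as a covariate, 3 peroxisomal genes were higher and 1 lower. Of the PPAR alpha genes, 4 were then higher and 3 lower (median -0.27).

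Of 24 genes of cholesterol synthesis and uptake, 7 were higher and none lower (median 0.47, and 0.19 on RFD with 1 called). Idi1, which makes the branched building block of sterols, had 34.3 to 122 CPM in STF (median 75.8) and 96.1 to 240.2 CPM in LTF (median 166). The log2 fold change was 1.03 with an SE of 0.19 (adjusted p = 0.00184, edgeR), and 9 of 12 LTF libraries lay above every STF library. Msmo1, Cyp51 and Tm7sf2, which act late in the pathway, rose by 0.69, 0.78 and 1.01. The 7 calls became 12 without STF 64, and 2 with the tuft and other marker score as a covariate.

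The promoter of Hmgcs1, an early enzyme of the pathway, is shown because it alone among the 5 called genes of this list with a RefSeq promoter holds a sterol response element, TCACNCCAC on either strand. That motif is found in 1.06% of the 10293 tested genes' promoters (250 bases before to 50 after the start). Among tested genes of the list with a promoter, called or not, it lay in 1 of 16. The 250 bases before the start site lie at chr13:119690101-119690350 (GRCm38, plus strand), with the motif in capitals:
Hmgcs1: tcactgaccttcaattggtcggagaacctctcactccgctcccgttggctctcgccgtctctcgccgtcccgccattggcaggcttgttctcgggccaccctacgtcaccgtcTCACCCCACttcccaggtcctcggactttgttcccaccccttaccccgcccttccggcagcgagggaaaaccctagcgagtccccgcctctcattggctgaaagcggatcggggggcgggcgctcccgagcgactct
The log2 fold change of Hmgcs1 itself was 0.68, and its call was lost without STF 70, STF 80 or LTF 31.

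Of 22 genes of MHC class I presentation tested, 7 were higher and none lower (median 0.67, and 0.46 on RFD with 2 called), as were 3 of 5 genes of the immunoproteasome. B2m, the light chain shared by class I molecules, had 380.3 to 758 CPM in STF (median 501) and 721 to 1815 CPM in LTF (median 894). All but 1 of the LTF libraries lay above every STF library, and B2m was also higher on RFD, with log2 fold changes of 0.92 (adjusted p = 0.00416) on HFD and 1.35 (adjusted p = 0.0185, edgeR) on RFD. H2-T23, a nonclassical class I heavy chain, had 30.3 to 206 CPM in STF (median 82.1) and 75.5 to 444 CPM in LTF (median 308). The highest values of B2m and H2-T23 were both in LTF 31, the library with the highest sum of myeloid markers.

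H2-Q1 and H2-Q2 rose by 1.52 and 0.91, and reads of H2 genes are uncertain because near-identical copies share them. The peptide-loading factor Tapbp and the chaperone Canx rose by 0.88 and 0.71, and the proteasome activators Psme1 and Psme2 by 0.48 and 0.54. Of 53 interferon-stimulated genes, 3 (5.66%) were higher, a share near the 4.95% of all genes, and none lower (median 0.34), and Irf1 (0.73), a transcription factor, stayed called without any 1 library. That count was 1 without STF 6, 8, 60, 62, 70 or 80 or LTF 31, 33, 50 or 65, 5 without LTF 7, 7 without LTF 6 and 8 without STF 64.

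Interferon-stimulated response elements hold the letters GAAA, any 2 bases and GAAA again. On either strand this motif was found in the promoters of 2 of the 5 called class I genes with a RefSeq promoter, beside 3.18% of all 10293. Among tested class I genes with a promoter, called or not, it lay in 4 of 18. The 250 bases before the start of the 2 called genes are shown, with the motif in capitals. B2m lies at chr2:122147437-122147686 (plus strand) and H2-T23 at chr17:36032702-36032951 (minus strand, motif as its reverse complement), both in GRCm38:
B2m: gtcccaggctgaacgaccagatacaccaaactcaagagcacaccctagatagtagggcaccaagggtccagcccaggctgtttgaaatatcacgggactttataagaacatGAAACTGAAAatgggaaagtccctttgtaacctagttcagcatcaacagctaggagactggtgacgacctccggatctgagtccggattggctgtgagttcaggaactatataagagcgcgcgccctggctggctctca
H2-T23: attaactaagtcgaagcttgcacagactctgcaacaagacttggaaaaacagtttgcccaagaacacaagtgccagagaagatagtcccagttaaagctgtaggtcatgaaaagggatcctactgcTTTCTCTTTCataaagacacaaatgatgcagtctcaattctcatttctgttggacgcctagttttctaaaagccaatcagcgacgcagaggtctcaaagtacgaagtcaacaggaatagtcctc

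Among 78 nuclear genes of the respiratory chain and ATP synthase, 20 were higher and 2 lower, while the median was only 0.19. The higher ones were led by small subunits. Cox6a1 and Cox8a, of cytochrome oxidase, had medians of 343 CPM (284 to 499.5) and 410.3 CPM (307 to 485) in STF and of 609 CPM (563 to 774) and 694 CPM (514 to 968) in LTF, and neither overlapped. Atp5e, of ATP synthase, rose by 1.28 on HFD (adjusted p = 0.00094) and 1.18 on RFD (adjusted p = 0.0194, edgeR). Atp5h and Cox6c rose by 0.68 each, without overlap. The 20 higher calls were 11 to 13 without STF 8, 50, 60, 62, 70 or 80 or LTF 5, 8, 31, 32, 33, 34, 50, 70 or 80. The 2 lower calls were 6 without STF 64, 5 without LTF 6, and 0 or 1 without STF 5, 6, 7, 8, 62, 70 or 80 or LTF 5, 8, 31, 33, 34, 50, 65, 70 or 80.

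Short transcripts were called more often in both directions, as the plot of calls by transcript length shows. Of 468 protein-coding genes with a median coding transcript under 600 bases, 12.4% were higher and 7.69% lower. Of 1280 genes of 5000 bases or more, 2.81% were higher and 2.03% lower. The median log2 fold change was 0.11 in the shortest class and 0.15 in the longest. The part of transcript length in the calls was not tested.

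**Figure D4:**
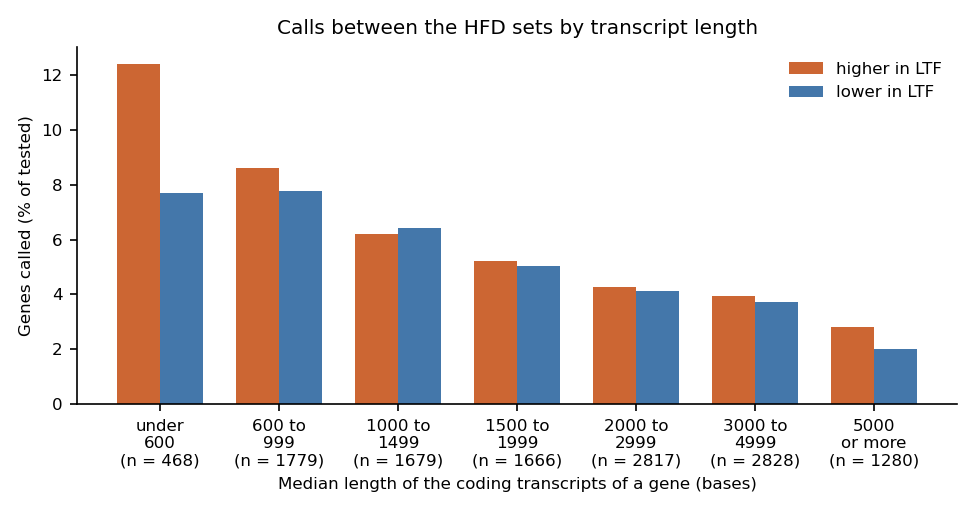
Share of tested protein-coding genes called higher (orange) or lower (blue) in LTF on HFD, by the median length of a gene's coding transcripts in bases, with the number of genes in each class. The higher share falls from class to class, from 12.4% under 600 bases to 2.81% at 5000 bases or more, and the lower share goes from 7.69% and 7.76% in the 2 shortest classes to 2.03%.

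Of 15 glycolysis genes, 5 were higher and none lower (median 0.47), and 3 were higher without STF 80. Gapdh, often used as a reference gene, rose from a median of 683 CPM (444 to 1116) to 1231 CPM (1004 to 1736), a log2 fold change of 0.88 with an SE of 0.17 (adjusted p = 0.00335, edgeR). Tpi1 rose by 0.59 without overlap, and Gpi1 by 0.74. The glutathione peroxidase Gpx4, which removes lipid peroxides, rose by 0.90, from a median of 157 to 329.7 CPM.

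Of 9 genes of type 2 cytokine signalling, 2 were higher (22.2%, beside 4.95% of all genes). Of these, Il10rb, a chain of several cytokine receptors, rose by 0.90 (median 71.1 to 139.9 CPM). Without STF 80 or LTF 34 the count was 1. It was also 1 with no filter on low counts, with low totals left out, or with the tuft and other marker score as a covariate. Of 10 genes of mucosal defence tested, 2 were higher (20%). Reg3a, an antibacterial lectin, rose by 0.94, and Nos2, the inducible nitric oxide synthase, also passed (adjusted p = 0.00806, edgeR). Nos2 had 68 reads in 8 of 12 LTF libraries and 2 reads in 1 STF library, a ratio of reads per library size of 30.3 (95% exact interval 8.08 to 256, counting error only). Without LTF 65, which held 27 of these reads, the ratio was 18.8 (interval 4.89 to 161), and without STF 62 no STF read was left and the level was at least 16.7-fold higher in LTF, against a floor of 3 reads over the STF group.

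By number, ribosomal protein genes formed the largest group of lower genes among the lists, in the list with most genes tested. Their share of 48.8% lower, beside 4.47% of all genes, was under those of the enteroendocrine (72.7%) and cell cycle (55%) lists. Of 82 tested, 40 were lower and none higher (median -0.54, and -0.31 on RFD with 4 called lower), and 26 were lower without STF 80. With limma on log2(TPM + 1), 2 were lower and 3 higher, and the list's median was -0.03 beside 0.33 over all genes. Ribosomal protein genes have many processed copies in the mouse genome, and reads may have been divided among them.

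Rpl14 had 179 to 744 CPM in STF (median 342) and 59.7 to 343 CPM in LTF (median 148), and 9 of 12 LTF libraries lay below every STF library. The log2 fold change was -1.22 with an SE of 0.23 (adjusted p = 0.00231, edgeR), against -1.12 on RFD (adjusted p = 0.0314). Rps18 had a log2 fold change of -1.19.

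Of 18 nucleolar genes of ribosome assembly, 7 were lower and none higher (median -0.79). Nop56 and Nop58, core proteins of the particles that methylate ribosomal RNA, fell from medians of 163 to 39.2 CPM and of 132 to 47.1 CPM. Their ranges overlapped, with 28.3 to 293 CPM against 11.4 to 111 CPM for Nop56. The abundant nucleolar proteins Npm1 and Ncl had log2 fold changes of -1.30 and -0.83. With the tuft and other marker score as a covariate, 2 nucleolar genes were lower and 1 higher, and 17 ribosomal protein genes were lower. The E box, another promoter motif, lay in 3 of 28 called ribosomal protein promoters and 1 of 6 called nucleolar promoters. It lay in 5 of 59 and 5 of 15 promoters of tested members, called or not, and in 10.1% of all promoters. The PPAR element lay in 0 of 6 called peroxisomal promoters, 0 of 7 called PPAR alpha promoters and 0.0583% of all promoters.

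Hspa4, a nucleotide exchange factor of the HSP70 chaperones, was 1 of the 2 genes without overlap in the lower direction. It had 109 to 209 CPM in STF (median 141) and 30.9 to 96.1 CPM in LTF (median 59.8), a log2 fold change of -1.31 with an SE of 0.18 (adjusted p = 6.85e-05, edgeR). On RFD the value was -0.93 (adjusted p = 0.399).

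Raly, an RNA-binding protein, had 7.37 to 138 CPM in STF (median 55.2) and 1.60 to 19.9 CPM in LTF (median 12.3), with log2 fold changes of -2.34 on HFD and -2.71 on RFD (adjusted p = 0.000328 and 0.00307, edgeR). The ranges overlapped through 1 STF library of low value. Snrpd3, a core protein of the spliceosome, fell from a median of 107 to 37.4 CPM, and Polr2m, a subunit found with RNA polymerase II, from 78.3 to 23.9 CPM. Exosc7, of the RNA exosome, and Ruvbl1, an ATPase of chromatin and chaperone complexes, had log2 fold changes of -1.16 and -1.42.

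Tomm40 forms the import channel of the outer mitochondrial membrane, of which Tomm7 is also a part. Tomm40 was lower (log2 fold change -1.44, median 125 to 42.2 CPM) where Tomm7 was higher. C1qbp, a protein of the mitochondrial matrix, fell by 2.01 on the log2 scale, and Pgp and Rnf4 by 1.62 and 0.86. These lower genes stayed called when each library was left out in turn.

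Of 20 cell cycle genes, 11 were lower and none higher, and all 20 had a negative sign (median -1.28, and -0.78 on RFD with none called). Mki67, a marker of dividing cells, had 3.67 to 124 CPM in STF (median 75.6) and 4.56 to 54.8 CPM in LTF (median 22.03). The ranges overlapped, although all LTF libraries lay below the STF median (log2 fold change -1.60, SE 0.40, adjusted p = 0.0157, edgeR). The replication factors Mcm2 and Mcm6 had log2 fold changes of -1.37 and -1.56, Pcna -0.79 and Tyms, which makes thymidylate, -1.14. The ion transporter Slc12a2, common in crypt cells, fell by 1.27, and of 10 stem cell genes it and Smoc2 were lower (20%, beside 4.47% of all genes).

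The count for the cell cycle was 5 to 7 without STF 6, 8, 62, 70 or 80 or LTF 5, 31, 34, 50, 65 or 80, 2 with the tuft and other marker score as a covariate, 1 with all 45 libraries in one fit, 3 with low totals left out and 20 without STF 62, 63 and 64. The stem cell count was 1 without STF 6, 8, 50, 60, 62, 70 or 80 or LTF 5, 31, 33, 34, 50, 65, 70 or 80, and 4 without STF 64. The Paneth markers, which share the crypt with dividing cells, had a median log2 fold change of -2.19. With edgeR none of the 8 was called, with 4 at an unadjusted p under 0.05, and with DESeq2 4 were called lower, as were 4 with edgeR without STF 62, 63 and 64. Lyz1, the lysozyme of Paneth cells, spanned 36.7 to 205098 CPM in STF and 3.23 to 53928 CPM in LTF (log2 fold change -2.20, adjusted p = 0.276, edgeR). The part of crypt cells in these differences was not tested.

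Cell cycle genes homology regions read TTTGAA. That motif, on either strand, lay in 8 of 19 promoters (42.1%) of tested cell cycle genes in RefSeq, called or not. The box named next lay in 17 of these 19 (89.5%), so neither motif was more than about as common among called genes. Among called cell cycle promoters, the first motif lay in 4 of 10 (40%), beside 12.6% of all promoters. The CCAAT box lay in 9 of 10 and in 39.0%. Mki67 (chr7:135716380-135716629) and Mcm2 (chr6:88898781-88899030), both on the minus strand of GRCm38, are shown with TTTGAA in capitals:
Mki67: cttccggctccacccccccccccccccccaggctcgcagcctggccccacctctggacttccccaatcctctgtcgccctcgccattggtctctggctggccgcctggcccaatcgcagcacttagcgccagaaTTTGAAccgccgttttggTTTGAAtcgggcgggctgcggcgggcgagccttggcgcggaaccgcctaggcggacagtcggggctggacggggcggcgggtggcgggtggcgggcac
Mcm2: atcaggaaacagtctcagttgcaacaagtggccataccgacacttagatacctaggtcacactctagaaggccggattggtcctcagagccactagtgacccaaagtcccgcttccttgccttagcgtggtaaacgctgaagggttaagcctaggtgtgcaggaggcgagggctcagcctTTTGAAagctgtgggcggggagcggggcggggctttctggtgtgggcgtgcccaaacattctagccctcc

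Of 11 enteroendocrine genes, 8 were lower and none higher (median -4.50, and -0.48 on RFD with none called). STF 8 carried most of these reads, with 6723 CPM summed over the list, and the highest LTF library had 311 CPM. By differences of mean log2 CPM, the list's median was -2.59, -0.80 and -0.49 in the 3 number series, in the order given above. The first of these series holds STF 8. With a filter of more than 5 reads in at least 11 HFD libraries, 3 genes of the list were tested and 2 were lower. Gip, the hormone of K cells, was at 3524 CPM in STF 8, at 0 to 356 CPM in the other 10 STF libraries and at 0 in 10 of 12 LTF libraries, where its highest value was 46.5 CPM. Without STF 8 its log2 fold change was -4.23 in place of -6.98 (adjusted p = 0.0742, edgeR), and without LTF 6 it was -10.92.

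Chga and Chgb, proteins of hormone granules, had medians of 23.3 and 65.7 CPM in STF and of 3.73 and 4.03 CPM in LTF. Their log2 fold changes were -3.39 and -4.50, and without STF 8 they were -2.09 and -3.39, and without LTF 6 they were -4.25 and -5.78. Tph1, which makes serotonin, ranged from 0 to 306 CPM in STF and from 0 to 3.30 CPM in LTF (log2 fold change -6.11, or -3.84 without STF 8 and -7.37 without LTF 31). Cck, the hormone of I cells, had reads in 8 of 11 STF libraries and in 3 of 12 LTF libraries, with a log2 fold change of -5.31 (-3.33 without STF 8 and -6.23 without LTF 6). All of these kept an adjusted p under 0.1 without STF 8.

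Pyy had 108 reads in 3 STF libraries and none in LTF, so that it was at least 40.3-fold higher in STF, against a floor of 3 reads over the LTF group. STF 8 held 69 of these reads, and without it the bound was 16.4-fold. Nts had 111 reads in 3 STF libraries, 67 of them in 1, and 3 reads in 2 LTF libraries, a ratio of 41.5 (95% exact interval 13.8 to 204, counting error only). Without STF 6, which held the 67, it was 18.03 (interval 5.78 to 90.8). Sct, the gene of secretin, had 3.12 to 391 CPM in STF and 16.5 to 307 CPM in LTF and was not called (log2 fold change 0.49, adjusted p = 0.595, edgeR).

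Of 17 genes of the endoplasmic reticulum stress response, 6 were lower and none higher, while the median was -0.16. These include the chaperone Hyou1 (-1.07), the disulfide isomerase Pdia6 (-0.84), the transcription factor Xbp1 (-0.64) and asparagine synthetase (Asns, -1.34). Of 23 immediate early and heat shock genes, 5 were lower and 1 higher. Hspa1a, an inducible HSP70 gene, had 21.1 to 228 CPM in STF (median 36.7) and 0 to 61.9 CPM in LTF (median 7.52), with 11 of 12 LTF libraries below every STF library (log2 fold change -2.36, SE 0.61, adjusted p = 0.0209, edgeR). Without LTF 33 the value was -3.01. The early genes Egr1 and Dusp1 fell by 1.78 and 1.82, and Ier3 rose by 1.98. The count of lower genes was 3 without STF 8 or STF 80.

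**Figure D5:**
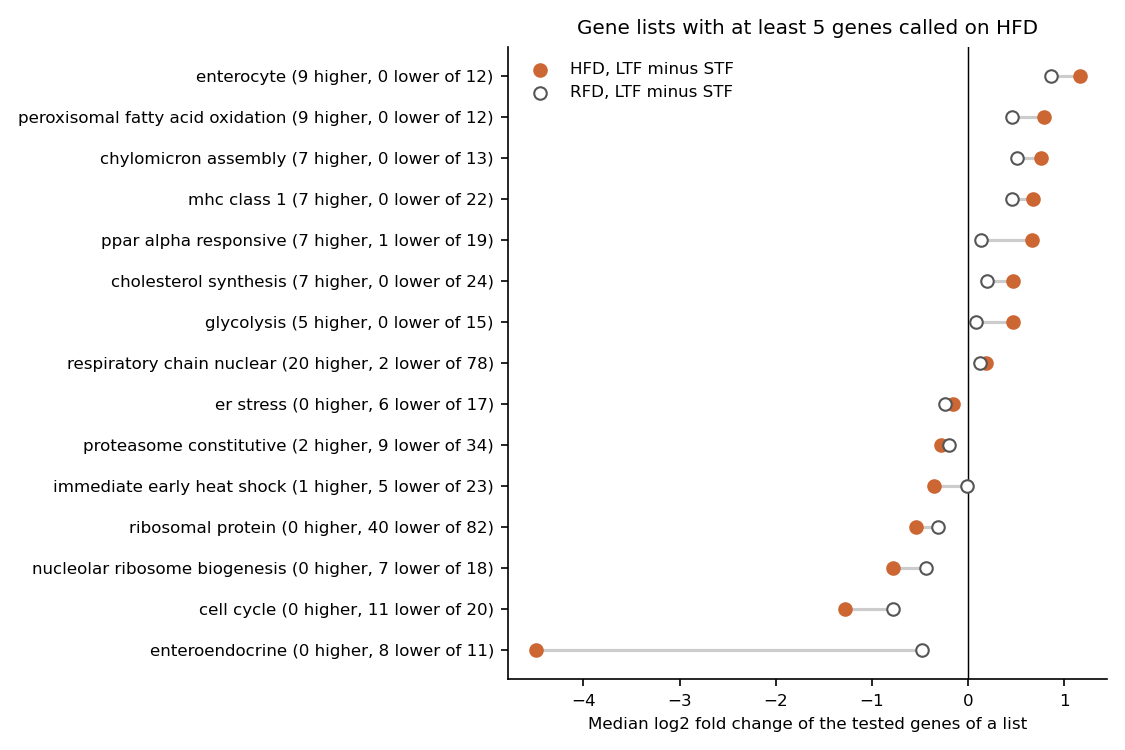
Median log2 fold change, LTF minus STF, of the tested genes of each list with at least 5 genes called on HFD, for HFD (filled) and RFD (open) libraries, with the number called on HFD beside each name. Enterocyte and peroxisomal lists have the highest HFD medians (1.16 and 0.79), cell cycle and enteroendocrine lists the lowest (-1.28 and -4.50), and the medians of all 15 lists have the same sign in both diets, with immediate early and heat shock genes at -0.01 on RFD.

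None of the 27 tuft cell markers was called, in either direction, with edgeR, and 5 had an unadjusted p under 0.05, all with higher values in LTF. With DESeq2, 2 were called, and 25 of the 27 had a positive sign (median 0.72, and 0.12 on RFD). Dclk1, a microtubule-binding kinase that marks tuft cells, had 33.8 to 2583 CPM in STF (median 757) and 147 to 2911 CPM in LTF (median 1574), with a log2 fold change of 0.96 with an SE of 0.47 (adjusted p = 0.253, edgeR). Trpm5 had 47.4 to 5120.5 CPM in STF (median 1056) and 134 to 2937 CPM in LTF (median 2079.8). Spread within the groups was far wider than for Ost4 or Plac8. The count depended on the libraries and on the setting. Without STF 64, 8 markers were called higher, and 23 without STF 62, 63 and 64, which belong to 1 number series. With all 23 libraries, 6 were called higher with limma on log2(TPM + 1) and 15 with the enterocyte score as a covariate. With the tuft and other marker score, which holds these markers, 1 was called higher. Leaving out the 3 STF libraries and the enterocyte score were alternatives chosen after seeing the data.

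Il25, the cytokine that drives type 2 immunity, had 0 to 24.6 CPM in STF (median 5.56) and 0 to 22.8 CPM in LTF (median 13.4), with a log2 fold change of 0.84 with an SE of 0.58 (adjusted p = 0.443, edgeR). Tslp had medians of 2.83 and 5.21 CPM and a log2 fold change of 0.14 with an SE of 0.67 (adjusted p = 0.942, edgeR). The genes of the surface proteins named for the sort were not called either: Siglecf had a log2 fold change of 1.05 (adjusted p = 0.223), Ptprc, which encodes CD45, 0.76 (adjusted p = 0.348) and Epcam -0.34 (adjusted p = 0.277).

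Of 20 genes that the study followed and that were tested here, 2 were higher (Gapdh and B2m) and 1 was lower, which is 10% and 5% beside 4.95% and 4.47% of all genes. The lower one was Coq8a, a kinase-like protein of coenzyme Q synthesis, with 54.3 to 193 CPM in STF (median 116) and 0 to 108 CPM in LTF (median 28.3). Of the LTF libraries, 8 of 12 lay below every STF library, and the log2 fold change was -1.43 with an SE of 0.41 (adjusted p = 0.0383, edgeR), against -0.80 on RFD (adjusted p = 0.844). Without STF 64, 6 of these genes were higher.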

How the data were processed

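RNA of sorted tuft cells had been amplified by Smart-seq2, which does not mark strand, and sequenced in pairs. The authors trimmed reads with Cutadapt 1.15, aligned them with STAR 2.6.0 (GRCm38 in the submitters' processing notes) and made expected counts and TPM per gene with RSEM, as deposited. LTF and STF were deposited as separate tables, and 24 columns without a label were not used. Of the values above 0, 8.789% were not whole numbers (tolerance 1e-06). Here the deposited expected counts were rounded, 27 genes that shared a symbol were removed, and 14020 genes were tested, those whose count exceeded 5 in 6 or more of all 45 libraries. edgeR 4.0.16 gave TMM-scaled CPM and quasi-likelihood tests with Benjamini-Hochberg adjustment (threshold 0.1), on the 23 HFD libraries. The authors' weighing of counts by cell type was not repeated. Single values per library were compared by permutation (scipy 1.17.1). Alternatives used DESeq2 1.42.0 and limma 3.58.1 on the deposited TPM with a pseudocount of 1, other filters, terms and libraries. Fits were tested on simulated data. Symbols and positions came from GENCODE M21 and promoters from RefSeq (GRCm38.p6).

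Named genes were the 12 higher and 12 lower protein-coding genes with the smallest p, excluding Gm and Rik symbols, the called members of each list (at most 8) and its 3 with the highest mean CPM, and the genes the study followed. Some genes that this rule takes are not reported here. The members and gene lists were chosen with earlier results of these data known. Replicates were separate mice, and intervals cover counting error only. By the paper's methods, mice shared cages and were killed cage by cage on consecutive days. The labels give neither cage nor day, and neither entered the fits, which treat mice as independent.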

Additional observations from a re-analysis of the deposited data

Results flagged for a closer look

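Nts, the gene of the gut hormone neurotensin, was picked out because the LTF against STF change differed between the diets by a test of that difference over all genes (log2 difference -8.44, SE 1.65, adjusted p = 0.0695, edgeR's quasi-likelihood test). On HFD it had reads in 3 of 11 STF and 2 of 12 LTF libraries, at most 2 reads in any LTF library, and on RFD it had 5.38 ± 7.94 CPM in STF and 73.1 ± 89.4 CPM in LTF (SD, n = 11 each). The hormone genes Pyy and Cck came next, with adjusted p of 0.145 and 0.286.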

How the results depend on the processing

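The 1320 calls on HFD became 2064 with DESeq2, 778 with all 45 libraries in one fit, 816 with the tuft and other marker score as a covariate, and, in alternatives chosen after seeing the data, 2906 without STF 62, 63 and 64 and 871 without STF 80. Leaving out 1 library gave 871 (without STF 80) to 2307 (without STF 64), and 762 of the 1320 genes were called in all 23 of these fits. The share of calls that were higher was 52.6%, and 41.8% with DESeq2's size factors, 41.6% with DESeq2, 94.5% with limma on log2(TPM + 1), 60.2% with all 45 libraries and 62.6% with the marker score. Under limma the median of all genes shifted by 0.27 (log2). The test of the diets' difference called 1 gene, 68 with no filter on low counts and 0 with libraries of low totals left out. RFD calls stayed within 1.5 times of 99.

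The 7 mouse numbers shared by both groups did not pair the libraries: correlations of their deviations ran from -0.382 to 0.381 with 2 of 7 over 0.1, and 0 LTF libraries correlated best with their own number. With the replicate block on these numbers 629 genes were called, and 1615 in the same libraries without it.

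Among named genes, signs reversed with the enterocyte score as a covariate for Lct (-0.30), Alpi (-0.11), Apoa4 (-0.17) and Slc5a1 (-0.058), whose levels enter that score. With the tuft and other marker score, they reversed for Tslp (-0.57), Ptprc (-0.060), Trpm5 (-0.42), Lyz1 (0.24) and Sct (-0.045). The levels of Trpm5, Lyz1 and Sct enter that score. With limma the sign reversed for Epcam (0.12). Tslp also reversed without low totals (-0.16), without STF 80 (-0.025), and without LTF 50 or LTF 65 (-0.047 each), in a range of -0.047 to 0.72 when 1 library was left out. None of these was called under the setting that reversed it, and the cause was not tested. The smallest library held 409023 reads, and genes of a few reads, such as Nts and Nos2, rest on few libraries.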
